A study of Homo sapiens with 75 samples.

Results

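The response of U2932 cells to R406 at 24 h was measured on 6 of the 75 arrays of the series, 3 from cells kept for 24 h in R406 and 3 from cells kept for 24 h in the vehicle DMSO. These arrays were chosen by cell line, agent and time as the sample labels give them. U2932 is an established line of diffuse large B-cell lymphoma (DLBCL), a cancer of mature B cells, and R406 is an inhibitor of the kinase SYK. The series holds 5 such lines, U2932, HBL1, LY7, DHL6 and DHL4, each with 3 arrays in DMSO at 0, 6 and 24 h and 3 arrays in R406 at 6 and 24 h, and no genetic change is named for any group. Each sample's total RNA was hybridised to an array of its own, of the Affymetrix type HT HG-U133 Plus. No source used here gives the R406 dose. The replicates of a group carry the letters A, B and C, and the labels do not say whether these are separate cultures, so a p-value reflects the spread among these samples alone, and that spread may be technical. U2932 is 1 line, and its responses need not be those of other lymphomas.

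SYK is a tyrosine kinase that is recruited to the phosphorylated tails of the B-cell receptor and passes its signal on to adaptor proteins, to BTK and phospholipase C, and to the PI3K, MAP kinase and NF-kappaB pathways. R406 is the active metabolite of fostamatinib, and it also inhibits kinases other than SYK. As background, U2932 and HBL1 are usually assigned to the activated B-cell class of DLBCL, in which B-cell receptor signalling to NF-kappaB is often chronically active, while DHL4, DHL6 and LY7 are usually assigned to the germinal centre class.

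The deposited values are log2 levels per gene made with RMA, a procedure that brings the probes of all arrays to a common distribution before combining them per gene. The deposited values themselves still differed slightly in their medians. In U2932 at 24 h these ran from 5.877 to 5.880 in DMSO and from 5.903 to 5.921 in R406. Genes are identified by Ensembl identifiers, which the files do not pair with gene names, so the response is described by counts over genes, by 4 identifiers and by the control probe sets that the array names. The defining markers of B cells could therefore not be set against the label of the line. Within each group the 3 arrays correlated at 0.997 to 0.998 over the 11745 genes tested, and R406 arrays correlated with DMSO arrays at 0.987 to 0.989. The residual SD of the 6 arrays ran from 0.0714 to 0.0858 on the log2 scale, and none was identical to another array. Replicate A of DMSO at 6 h, which enters the comparison with the earlier time, stood apart with a residual SD of 0.163, the highest of the 75, so the main results that rest on it are given with and without it. In a culture measured in bulk, fewer cells of a kind and less RNA per cell cannot be told apart.

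After 24 h in R406, U2932 showed many small differences and a few large ones. Of 11745 genes, 1896 (16.1%) were higher and 2407 (20.5%) were lower in R406 than in DMSO, or 36.6% in either direction (limma, Benjamini-Hochberg adjusted p under 0.05). Among the called genes the median change was 0.29 on the log2 scale for those higher and -0.27 for those lower, against a median standard error of 0.0742. A change of less than 1.5-fold was found for 3844 called genes, or 89.3% of them. A change of 2-fold or more was found for 46 higher and 47 lower genes on the RMA scale. These numbers were 15 and 428 with the poly-A spikes subtracted and 19 and 160 with the hybridisation controls subtracted. Against DMSO at 0 h they were 82 and 101. With RNA quality covariates they were 381 and 275, but 1 covariate nearly coincides with the agent in these arrays. The extremes of all genes tested were 2.67 and -3.95 on the log2 scale.

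The 3 R406 arrays lay wholly above the 3 DMSO arrays for 24.7% of all genes tested and wholly below them for 28.6%, or 53.3% together. Among called genes, 1833 of the 1896 higher ones and 2356 of the 2407 lower ones had arrays that did not overlap. A gene was tested where its highest group mean passed 5.89, the median over the whole table. From below this level in all 3 DMSO arrays to above it in all 3 R406 arrays went 101 called genes, and 44 went the other way. Another 1718 genes were tested because of other groups and had both means below the level, and 286 of these were called.

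**Figure D1:**
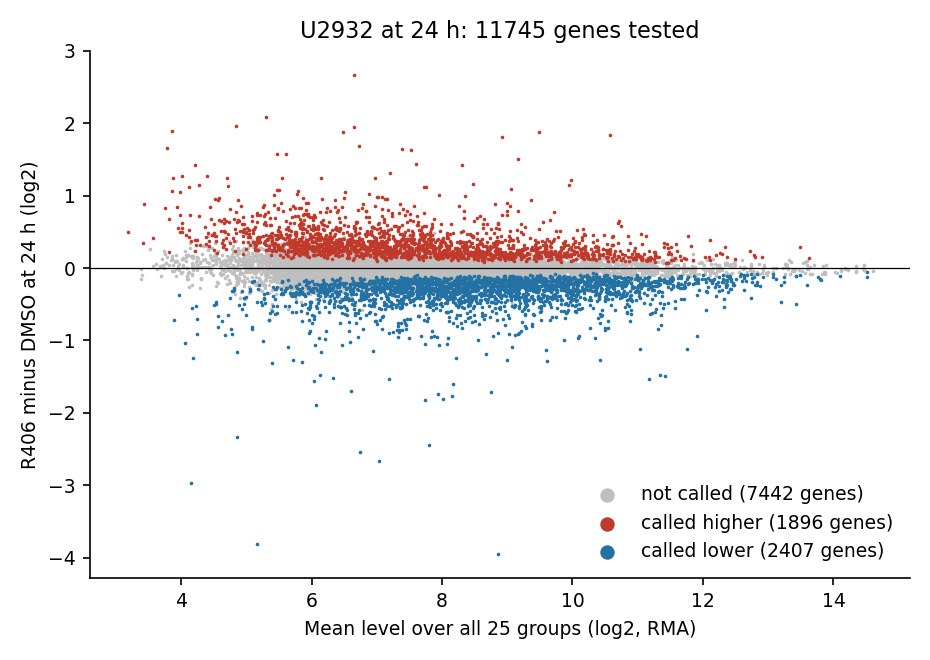
Log2 difference between R406 and DMSO in U2932 at 24 h (vertical axis) against the mean log2 level over all 25 groups of the series (horizontal axis), 1 point per gene tested. The 1896 genes called higher and the 2407 called lower lie mostly near 0, with 89.3% of them under a 1.5-fold change, and the extreme values are 2.67 and -3.95.

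The balance of higher and lower calls depended on how the arrays were put on a common scale. Of all calls, 44.1% were higher in the RMA values as deposited, 55.5% after cyclic loess and 33.2% after each array's median was subtracted. Subtracting the mean of the spiked poly-A RNAs left 71 genes higher and 10133 lower, or 0.696% higher, and moved the median change of all genes from -0.0076 to -0.54. Subtracting the mean of the hybridisation controls left 208 higher and 8009 lower, or 2.53% higher, with a median change of -0.34. The direction of a small change in the counts that follow is therefore relative to the RMA scale. Adding the level of the 5-prime 28S probe set and the 3-prime minus 5-prime difference of actin as covariates left 561 genes higher and 543 lower. The median standard error was then 0.367. The 28S level differed between the agents by 1.91, with SDs of 0.010 in DMSO and 0.013 in R406. This fit therefore cannot separate its part from that of R406.

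The surplus of lower calls lay in genes of high level, and it went with the scale too. Genes were split into 4 classes of nearly equal size by their mean level over the 25 groups. In the lowest class 487 genes were higher and 192 lower, or 16.6% and 6.54% of the class. In the highest class 442 were higher and 1049 lower, or 15.0% and 35.7%. The share called lower thus grew with level, while the share called higher varied little. After cyclic loess the highest class held 779 higher and 693 lower genes, so the surplus at high level turned round.

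**Figure D2:**
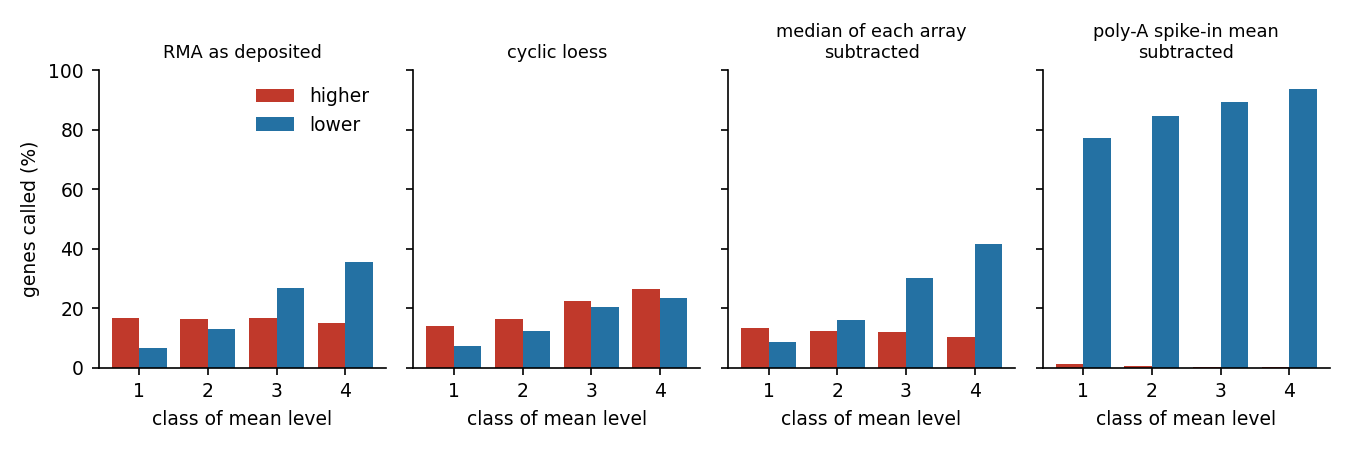
Share of genes called higher (red) and lower (blue) in U2932 at 24 h, in percent of each class of mean level (1 lowest, 4 highest), under 4 ways of scaling the arrays. With RMA the share called lower rises from 6.54% to 35.7%, with cyclic loess it rises to 23.6% in the highest class, where the share called higher is 26.5%, and with the poly-A spike mean subtracted nearly all calls are lower.

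The 4 identifiers are given in full, the pair with the largest increase and the pair with the largest decrease among called genes whose arrays did not overlap and whose higher group lay above 5.89. Such genes numbered 1642 higher and 2283 lower. ENSG00000090104 had levels of 5.33, 5.37 and 5.36 in the DMSO arrays and 8.11, 8.08 and 7.88 in the R406 arrays. All R406 arrays lay above all DMSO arrays, by 2.67 ± 0.11 (SE, n = 3 and 3) on the log2 scale, or 6.36-fold (limma, adjusted p = 6.89e-27). Its DMSO values lay below 5.89, and in DMSO the mean level fell from 6.25 at 0 h to 5.35 at 24 h (limma, log2 difference -0.89, adjusted p = 2.10e-08). That comparison over time shares the 24 h DMSO arrays with the response to R406.

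ENSG00000252139 had levels of 4.97, 5.02 and 4.22 in DMSO and 6.67, 6.68 and 7.13 in R406. The groups did not overlap, although 1 DMSO array was lower than the others by more than the difference between them. The increase was 2.09 ± 0.22 (SE, n = 3 and 3) on the log2 scale (limma, adjusted p = 2.77e-11), and all DMSO values again lay under 5.89.

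ENSG00000048462 had levels of 11.41, 11.42 and 11.34 in DMSO and 7.46, 7.42 and 7.45 in R406. The arrays of each group lay close to each other and far from the other group. Its level fell by 3.95 ± 0.15 (SE, n = 3 and 3) on the log2 scale (limma, adjusted p = 1.14e-28), and both groups lay above 5.89.

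ENSG00000122877 had levels of 7.43, 7.53 and 7.46 in DMSO and 3.83, 3.56 and 3.61 in R406. The groups did not overlap, and the R406 values lay within the range of 3.07 to 4.13 of the 3 probe sets for trp, a bacterial RNA, so the size of the fall is uncertain. The log2 difference was -3.80 ± 0.18 (SE, n = 3 and 3; limma, adjusted p = 3.18e-25).

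**Figure D3:**
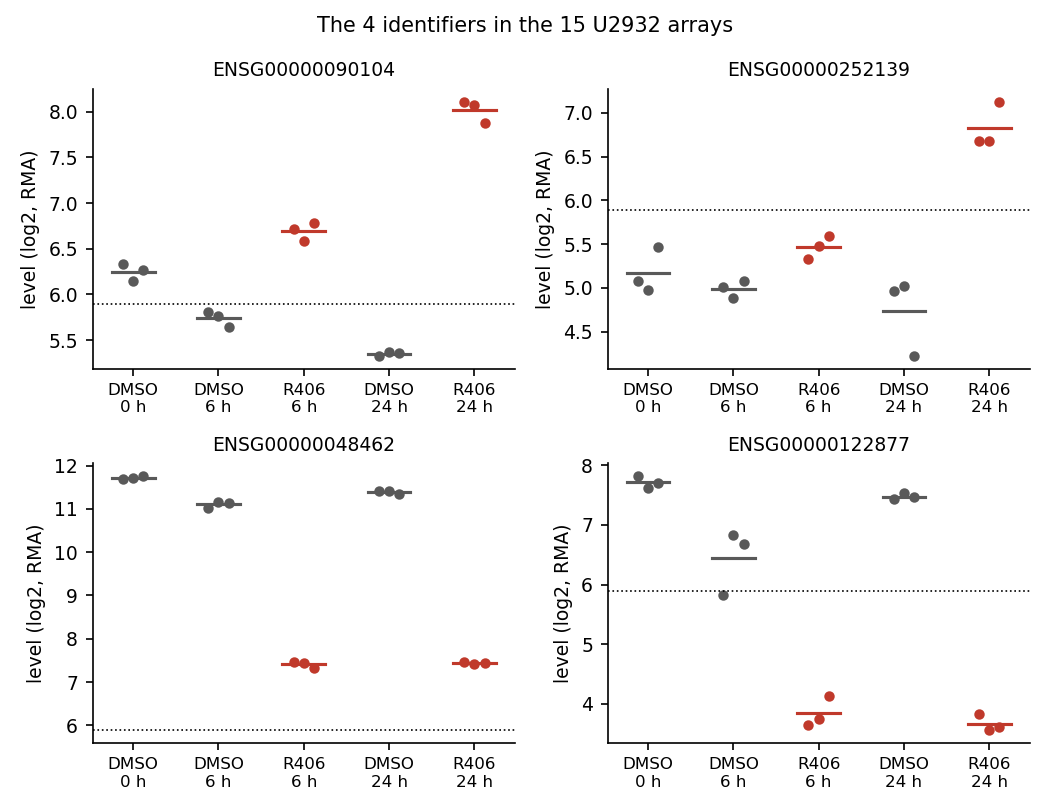
Log2 levels of the 4 identifiers in the 15 U2932 arrays, with DMSO in grey, R406 in red, 1 point per array and a bar at each group's mean; the dotted line marks 5.89. The 2 identifiers that rose lie below the line in DMSO at 24 h, ENSG00000048462 is as low in R406 at 6 h as at 24 h, and ENSG00000122877 lies below the line in R406 at both times.

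The comparison with 6 h asks which differences were already there and which came later. At 6 h, on other arrays, 2101 genes were higher (17.9%) and 1241 lower (10.6%) in R406 than in DMSO, or 28.5% in either direction. Without replicate A of DMSO at 6 h these were 1395 and 1049. Of the genes called at 24 h, 784 of those higher were higher at 6 h as well, or 41.4% of the 24 h calls and 37.3% of the 6 h calls. For lower genes the number was 710, or 29.5% of the 24 h calls and 57.2% of the 6 h calls. Without that replicate 618 and 707 genes were called at both times. At 6 h, 1044 of the genes higher at 24 h and 1537 of those lower at 24 h were not called. Opposite calls at the 2 times were made for 68 genes that were higher at 24 h and for 160 that were lower, or for 51 and 81 without it.

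The difference between the responses was tested directly. It was higher at 24 h for 886 genes (7.54%) and lower for 1802 (15.3%), or 22.9% in all. A called difference in the direction of the 24 h change was found for 593 of the genes higher at 24 h and for 1161 of those lower. Without replicate A of DMSO at 6 h the difference was higher for 763 genes and lower for 1357, of which 559 and 979 had the direction of the 24 h change. The number lower was 1138 with only the 15 U2932 arrays in the fit. The split of higher and lower genes was 1112 and 1003 after cyclic loess, 34 and 2157 with the poly-A spikes subtracted, and 87 and 4804 with the hybridisation controls subtracted.

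The genes that changed at least 2-fold at 24 h were mostly called in the same direction at 6 h. Of the 47 lower genes 46 were called lower at 6 h and 0 higher, with a median log2 change of -1.02 at 6 h and -1.29 at 24 h. Of the 46 higher genes 33 were called higher at 6 h and 2 lower, with medians of 0.49 at 6 h and 1.25 at 24 h. Over all genes tested, 10.6% were called lower and 17.9% higher at 6 h. Without replicate A of DMSO at 6 h, 47 of the lower and 31 of the higher genes were called the same way. The genes were chosen for their size at 24 h, which by itself favours larger medians at 24 h, and how much of the gap this makes was not tested.

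The 4 identifiers followed different courses. ENSG00000048462 had a log2 change of -3.70 at 6 h (limma, adjusted p = 2.35e-27), and its difference between the times was -0.25 (limma, adjusted p = 0.439; 0.0381 with only the 15 U2932 arrays in the fit). ENSG00000122877 had a change of -2.61 at 6 h, or -2.91 without replicate A of DMSO, and its difference between the times was -1.20 (limma, adjusted p = 0.0003), or -0.89 without that replicate (limma, adjusted p = 0.00545). Its mean R406 levels were 3.84 ± 0.25 (SD, n = 3) at 6 h and 3.67 ± 0.14 (SD, n = 3) at 24 h, close to each other, while its DMSO mean was 6.45 ± 0.54 (SD, n = 3) at 6 h and 7.47 ± 0.05 (SD, n = 3) at 24 h. ENSG00000090104 had a change of 0.95 at 6 h, and its response at 24 h was higher by 1.72 (limma, adjusted p = 7.71e-12). ENSG00000252139 had a change of 0.48 at 6 h that was not called (limma, adjusted p = 0.102), and its difference between the times was 1.61 (limma, adjusted p = 0.000116). Without replicate A of DMSO at 6 h, the 6 h changes were -3.74 for ENSG00000048462, 0.99 for ENSG00000090104 and 0.49 for ENSG00000252139, and the differences between the times were -0.20, 1.68 and 1.60, with no call lost or gained.

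The other 4 lines, whose arrays are all separate from those of U2932, give the response a measure of how far it was shared. With R406 at 24 h the share of genes called was 43.7% in HBL1, 59.3% in LY7, 60.7% in DHL6 and 69.2% in DHL4, against 36.6% in U2932. Of the genes higher in U2932, 276 were called higher in 0 other lines, 384 in 1, 462 in 2, 410 in 3 and 364 in all 4. Of the genes lower in U2932, 249 were called lower in 0 other lines, 302 in 1, 415 in 2, 558 in 3 and 883 in all 4. The matching numbers over all genes were not computed. Line by line, DHL4, LY7 and DHL6 shared 58.5%, 54.3% and 49.2% of the higher genes, where 31.1%, 26.7% and 25.2% of all genes were higher. They shared 71.5%, 65.9% and 72.3% of the lower genes, where 38.1%, 32.6% and 35.5% of all genes were lower. HBL1 shared 924 of the higher genes, or 48.7% of U2932's and 36.8% of its own, where 21.4% of all genes were higher in HBL1. It shared 1291 of the lower genes, or 53.6% of U2932's and 49.3% of its own, where 22.3% of all genes were lower. HBL1 had the opposite call for 136 of the genes higher and 226 of the genes lower in U2932.

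The sizes of the responses differed for many genes. The U2932 response lay above the mean response of the other 4 lines for 3188 genes (27.1%) and below it for 2116 (18.0%), or 45.2% in all (limma, test of the difference). After the poly-A spikes were subtracted these were 176 and 4246, and after the hybridisation controls 3287 and 778. Of the 5304 genes called on the RMA scale, the change in U2932 had the same sign and was smaller for 2586. For 578 it had the same sign and was larger, and for 2140 the signs were opposite. The 883 genes lower in all 5 lines had a median log2 change of -0.28 in U2932 and -0.61 in the mean of the others, and the difference was called for 711 of them in the direction of a smaller fall in U2932. The 364 genes higher in all 5 lines had medians of 0.31 and 0.58, and a smaller rise in U2932 was called for 244. These classes and medians hold for the RMA scale and were not computed with spikes or controls subtracted. The U2932 response minus the mean of the others was 0.35 for the poly-A spikes and -0.11 for the hybridisation controls. Against HBL1 alone, the U2932 response was above for 1545 genes (13.2%) and below for 1756 (15.0%), or 28.1% in all, and for 110 and 5541 with the poly-A spikes subtracted, 354 and 1210 with the hybridisation controls subtracted and 1079 and 2232 with each array's median subtracted.

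Opposite calls were made more often in part of the lines than in all of them. Of the genes higher in U2932, 648 (34.2%) were called lower in at least 1 other line. Of those lower in U2932, 618 (25.7%) were called higher in at least 1. DHL4 alone called 38.1% of all genes tested lower and 31.1% higher, so neither share exceeds that over all genes. The number of genes higher in U2932 and lower in each of the other 4 lines was 19, and 26 were lower in U2932 and higher in the others. The difference was called for all 19 and all 26, but choosing genes by opposite calls nearly fixes that outcome. Their medians were 0.20 in U2932 against -0.40 in the others, and -0.19 against 0.43. Genes called in U2932 and in no other line in either direction numbered 73 higher and 64 lower. For 48 and 50 of these the difference from the mean of the others was called. The rest are not shown to be particular to U2932. All these genes were chosen by the same values, so the called differences are no separate evidence of it either.

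**Figure D4:**
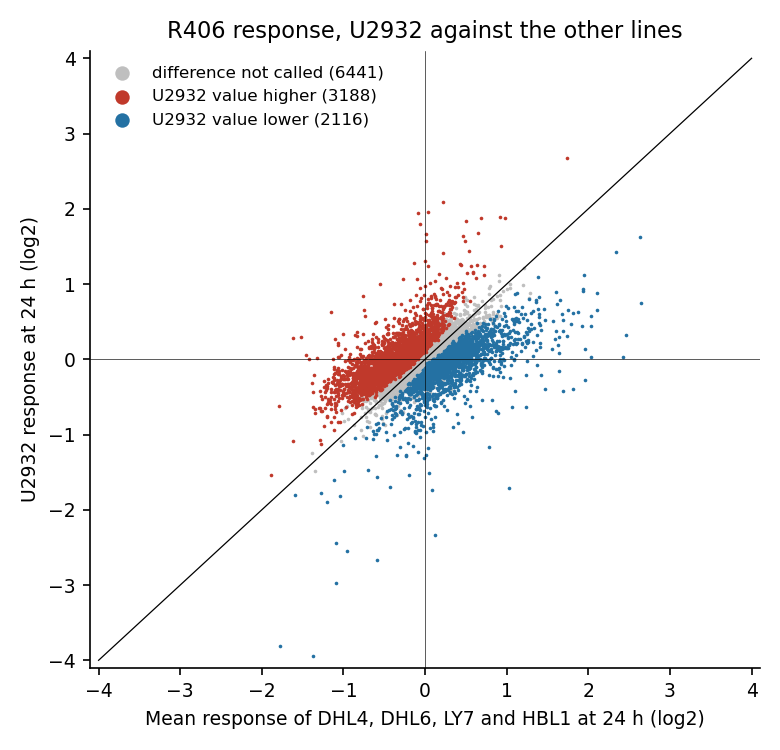
Log2 response of U2932 to R406 at 24 h on the RMA scale (vertical axis) against the mean response of DHL4, DHL6, LY7 and HBL1 (horizontal axis), 1 point per gene tested, with the line of equal response. Points are coloured where the difference was called, 3188 with the higher and 2116 with the lower value in U2932, and most of these lie nearer to 0 on the vertical than on the horizontal axis or have opposite signs.

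The genes that changed at least 2-fold in U2932 were in part called in other lines. Of the 46 higher genes 30 were called higher in DHL6, 25 in DHL4, 21 in LY7 and 20 in HBL1, and 11 were called lower in LY7. Of the 47 lower genes 32 were called lower in DHL6, 30 in HBL1, 23 in DHL4 and 22 in LY7, and 8 were called higher in DHL4. Over all genes tested, 25.2% were called higher in DHL6, 31.1% in DHL4, 26.7% in LY7 and 21.4% in HBL1. The shares of all genes called lower were 35.5%, 38.1%, 32.6% and 22.3% in the same order. The medians in HBL1 were 0.22 for the 46 and -0.58 for the 47, against 1.25 and -1.29 in U2932, where the genes were chosen for their size.

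ENSG00000122877 had a log2 change of -3.79 in HBL1 and -3.51 in DHL6, and its difference between U2932 and HBL1 was -0.018 (limma, adjusted p = 0.968). Its R406 means were 4.00 in HBL1, 3.38 in DHL6 and 3.67 in U2932, near the bottom of the range. The sizes of these falls are therefore uncertain, and the small difference from HBL1 does not show equal responses. In DHL4 and LY7 its changes were 0.036 and 0.17, from levels near the bottom of the range in both agents. ENSG00000048462 changed by -2.70 in DHL6, -1.91 in HBL1 and -1.04 in DHL4, and the fall in U2932 was larger than the mean of the others, with a difference of -2.58 (limma, adjusted p = 1.05e-18). That mean includes LY7, where the level was low in both agents, at 4.59 and 4.75, with a change of 0.16 (limma, adjusted p = 0.399).

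ENSG00000090104 was higher in R406 than in DMSO by 4.20 in LY7 and 2.34 in DHL4 on the log2 scale, against 2.67 in U2932. These differences between single lines were not tested. In DHL4 its DMSO mean fell from 8.19 at 0 h to 4.17 at 24 h, and its R406 mean of 6.51 stayed below the 0 h level. The R406 means at 24 h were above the 0 h means in LY7 (8.94 and 6.07) and U2932 (8.02 and 6.25). In HBL1 it was higher in R406 by 0.43 (limma, adjusted p = 0.0014), with an R406 mean of 5.26 against 6.53 at 0 h. In DHL6 its change was -0.035 (limma, adjusted p = 0.805). ENSG00000252139 changed by 0.67 in DHL6 and 0.54 in DHL4, by -0.50 in LY7 (limma, adjusted p = 0.0477) and by 0.16 in HBL1 (limma, adjusted p = 0.601). The U2932 response exceeded the mean of the others by 1.87 (limma, adjusted p = 7.55e-09), the largest rise of the 5 lines for this identifier.

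The array names probe sets for ribosomal RNA, actin, GAPDH, ISGF3A and bacterial spikes, and several of these were called at 24 h. Their tests were added after their values had been seen. The bacterial poly-A RNAs, which are mixed into the sample before labelling, had mean levels of 7.78, 7.79 and 7.82 in the DMSO arrays and 8.29, 8.47 and 8.24 in the R406 arrays. The groups did not overlap, and the difference was 0.54 ± 0.13 (SE, n = 3 and 3) on the log2 scale (limma, adjusted p = 0.000548). All 24 of the 24 poly-A probe sets were higher in every R406 array than in every DMSO array, by 0.25 to 0.74. Of all genes tested, 24.7% had such an order. Several sets read each of the RNAs dap, lys, phe and thr on the same arrays, so the sets are not separate observations.

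The hybridisation controls, which are added after labelling, had mean levels of 11.10, 11.10 and 11.02 in DMSO and 11.28, 11.57 and 11.37 in R406. Here too the groups did not overlap, with a difference of 0.33 ± 0.08 (SE, n = 3 and 3) on the log2 scale (limma, adjusted p = 0.000564) and all 18 of 18 probe sets higher in every R406 array. These sets also read the same few RNAs several times. Relative to the hybridisation controls, the poly-A difference was 0.20 (limma, adjusted p = 0.159). At 6 h the differences were 0.20 for the poly-A RNAs (limma, adjusted p = 0.256) and 0.052 for the hybridisation controls (limma, adjusted p = 0.677), or 0.17 and -0.079 without replicate A of DMSO, not called either way. At 24 h the poly-A difference was -0.60 in DHL4, 0.058 in HBL1, 0.59 in LY7 and 0.69 in DHL6. The part of the spikes in the counts of genes was not tested beyond the scalings given above.

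Ribosomal RNA has no long poly-A tail and is largely passed over by labelling from poly-A, and its probe sets are read mainly as a check on the RNA and its labelling. The 5-prime 28S probe set had levels of 12.00, 11.99 and 11.98 in DMSO and 13.90, 13.89 and 13.91 in R406. The groups were tight and wide apart, with a difference of 1.91 ± 0.06 (SE, n = 3 and 3) on the log2 scale (limma, adjusted p = 1.51e-34). The middle 28S set differed by 0.87 (limma, adjusted p = 1.38e-20). The 3-prime, middle and 5-prime sets of 18S differed by 1.07, 0.46 and 0.27 (limma, adjusted p = 5.08e-12, 0.000396 and 0.0157). The last of these lost its call without replicate A or C of R406 or replicate C of DMSO, and the middle and 5-prime 18S differences turned to -0.075 and -0.27 after the poly-A spike mean was subtracted, and the 5-prime one to -0.062 after the hybridisation controls.

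At 6 h the 5-prime 28S difference was 0.35 in U2932 (limma, adjusted p = 1.18e-06), or 0.45 without replicate A of DMSO. At 24 h it was 1.79 in DHL6, 0.93 in DHL4, 0.65 in HBL1 and -1.54 in LY7, and the U2932 response exceeded the mean of the 4 by 1.45 (limma, adjusted p = 8.30e-27). Its part in the gene results was not tested, because the covariate fit above cannot separate it from that of R406.

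**Figure D5:**
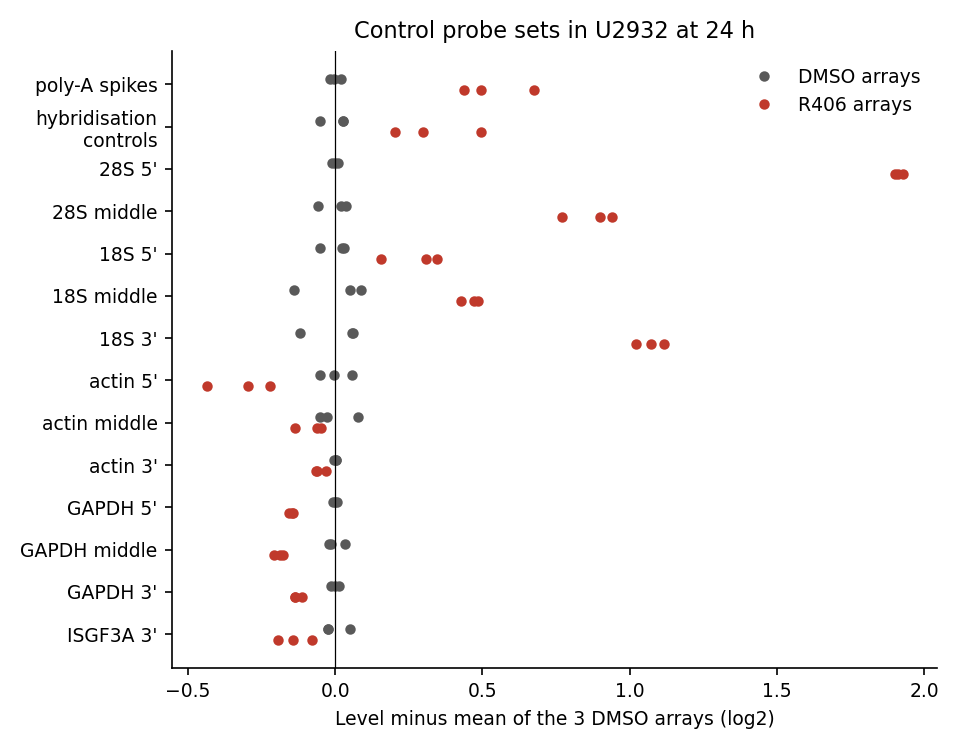
Levels of control probe sets in the 6 arrays of U2932 at 24 h, each minus the mean of the 3 DMSO arrays (log2), with DMSO in grey and R406 in red, 1 point per array. Spikes and ribosomal probe sets are higher in every R406 array, the 5-prime 28S set by 1.91, although the middle and 5-prime 18S differences are -0.075 and -0.27 once the poly-A mean is subtracted. GAPDH sets are lower by 0.13 to 0.19.

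GAPDH, an enzyme of glycolysis, had levels of 14.12, 14.10 and 14.13 in DMSO and 13.98, 14.00 and 13.98 in R406 at its 3-prime probe set. The groups did not overlap, and the log2 difference was -0.13 (limma, adjusted p = 3.17e-05). Its 5-prime and middle sets differed by -0.15 and -0.19 (limma, adjusted p = 1.44e-06 and 1.64e-08). After cyclic loess the 3-prime difference was -0.057 (limma, adjusted p = 0.0501), so its call went with the scale. The 5-prime and middle sets kept their calls there, at -0.077 and -0.119 (limma, adjusted p = 0.0157 and 0.000449). At 6 h the 3 sets differed by -0.010, -0.034 and -0.050, and none was called with or without replicate A of DMSO.

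Actin, a protein of the cytoskeleton, differed by -0.052 at its 3-prime set (limma, adjusted p = 0.228), or by 0.021 after cyclic loess, and by -0.082 at its middle set (limma, adjusted p = 0.337). Its 5-prime set had levels of 11.95, 11.99 and 12.05 in DMSO and 11.78, 11.56 and 11.70 in R406. These did not overlap and differed by -0.32 (limma, adjusted p = 0.0126), and the call was lost without replicate B of R406 or replicate C of DMSO. It was also lost after cyclic loess (limma, adjusted p = 0.0582), with only the U2932 arrays (0.139) and against DMSO at 0 h (0.509). With covariates it was lost too (limma, adjusted p = 0.340), but 1 covariate is computed from this set, so that fit cannot test it. The 3-prime minus 5-prime difference of actin, a usual measure of RNA integrity, was 1.41, 1.37 and 1.31 in DMSO and 1.52, 1.73 and 1.63 in R406. It was larger in every R406 array, by 0.27 (limma, adjusted p = 0.0465). This call was lost in 5 of the 6 fits without 1 array, with adjusted p of 0.0617 to 0.182, and also with the poly-A spikes subtracted (limma, adjusted p = 0.0506), with no filter (0.0673), with only the U2932 arrays (0.261) and against DMSO at 0 h (0.491).

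ISGF3A is the name that the array gives to a subunit of the transcription factor that answers to interferon. Its 3-prime set had levels of 8.36, 8.44 and 8.36 in DMSO and 8.24, 8.31 and 8.19 in R406. The groups did not overlap, but the log2 difference of -0.14 was not called (limma, adjusted p = 0.0888; 0.0347 after each array's median was subtracted). At 6 h the same set was higher in R406, by 0.27 (limma, adjusted p = 0.000819), or 0.32 without replicate A of DMSO. The array's 5-prime, MA and MB sets of ISGF3A differed then by 0.098, 0.11 and 0.26. None of these was called (limma, adjusted p = 0.398, 0.444 and 0.111). The U2932 response of the 3-prime set at 24 h lay above the mean of the other 4 lines by 0.26 (limma, adjusted p = 0.00241). In those lines the change was -0.85 in DHL4, -0.53 in HBL1, -0.20 in DHL6 and -0.012 in LY7.

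The DMSO arrays show how far levels moved in U2932 without R406. From 0 to 24 h in DMSO, 1207 genes rose (10.3%) and 913 fell (7.77%), or 18.1% of those tested, with 4 and 15 of them by 2-fold or more. With the poly-A spikes subtracted 30 rose and 109 fell, and with the hybridisation controls subtracted 272 and 255. With the 0 h arrays in place of the 24 h DMSO arrays as control, 2694 genes were higher and 2848 lower in R406 at 24 h.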

How the data were processed

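The authors deposited 1 table of log2 levels, produced by RMA per the submitters' processing notes, with no version in the sources used here. It has 19536 gene probe sets named by Ensembl identifiers and 62 control probe sets. Genes whose highest group mean exceeded 5.89, the median of all values, were kept (11745). All 75 arrays entered 1 linear model of group means (limma 3.58.1, R 4.3.3; 50 residual degrees of freedom, eBayes, two-sided), with Benjamini-Hochberg adjustment within each contrast and a threshold of 0.05. Control probe sets were tested with the prior of the gene fit and adjusted together with the genes. Replicate letters are not known to pair the samples and were not used in the model. Deviations of same-letter arrays at 24 h correlated at -0.016, 0.12 and 0.11, which cannot exclude a pairing.

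The reference gene table names 59792 genes, 0 of them with an Ensembl identifier. The 39 gene lists and all genes fixed by symbol were therefore not analysed, no sequence was matched, and the rule for named genes reduced to the 2 identifiers that rose most and the 2 that fell most. Members and lists were chosen with earlier results of these data known. The fit was tested on simulated data. The number of arrays limits the precision.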

Additional observations from a re-analysis of the deposited data

Results flagged for a closer look

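Tests of a difference between responses called many genes. The response of U2932 at 24 h differed from that at 6 h for 886 genes with a higher and 1802 with a lower value at 24 h. It differed from the mean of the other 4 lines for 3188 genes with a higher and 2116 with a lower value in U2932, and from HBL1 for 1545 and 1756. The groups have 3 arrays each, and no outlier test was made within them.

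Between 24 and 6 h the log2 response of ENSG00000090104 differed by 1.72, that of ENSG00000252139 by 1.61 and that of ENSG00000122877 by -1.20. Against the mean of the other 4 lines the differences were 0.93 for ENSG00000090104, 1.87 for ENSG00000252139, -2.58 for ENSG00000048462 and -2.03 for ENSG00000122877. The mean of the others includes lines in which the level was low in both agents and could hardly fall, LY7 for ENSG00000048462 and both DHL4 and LY7 for ENSG00000122877, whose difference from HBL1 alone was -0.018. In R406 the level of ENSG00000122877 lay near the bottom of the range in both U2932 and HBL1, so this value does not show equal responses. A pair of control measures also responded more in U2932 than in the mean of the others, the 5-prime 28S probe set by 1.45 and the mean of the poly-A spikes by 0.35. The poly-A excess did not hold against each line, and the 28S excess was small against DHL6. For the poly-A spikes, DHL6 (0.69) and LY7 (0.59) had larger differences than U2932 (0.54), and DHL4 (-0.60) and HBL1 (0.058) smaller ones. For 28S, U2932 (1.91) lay close to DHL6 (1.79), above DHL4 (0.93) and HBL1 (0.65), and far from LY7 (-1.54). Single lines were not tested against U2932 for these measures. The part of the 28S set and the spikes in the gene differences was not tested beyond the alternatives given next.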

How the results depend on the processing

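The changes of the 4 identifiers at 24 h kept their direction and call under every alternative run, except that ENSG00000252139 was not tested under the stricter filter, which it does not pass. The spike-based scalings, the tests of control probe sets and the 6 h values without replicate A of DMSO were chosen after seeing the data. In the order response at 24 h, 24 h minus 6 h, minus the other lines, minus HBL1, genes higher and lower with covariates numbered 561 and 543, 207 and 263, 1123 and 680, 660 and 617, with larger standard errors. With poly-A spikes subtracted, counts outside 1.5 times the reported ones were 71 and 10133, 34 (higher only), 176 and 4246, 110 and 5541, and 30 and 109 for DMSO over time. With hybridisation controls they were 208 and 8009, 87 and 4804, 778 (lower only), 354 (higher only), and 272 and 255 for DMSO over time. For 24 h minus 6 h, the stricter filter gave 590 higher, with fewer genes tested, cyclic loess 1003 lower and the 15 U2932 arrays 1138 lower. For the other shifts the cause was not tested.

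Leaving out single arrays gave 1539 to 1745 higher and 2097 to 2125 lower at 24 h, 719 to 1003 and 1357 to 2066 for 24 h minus 6 h, 2843 to 3049 and 1917 to 1962 against the other lines, 1319 to 1506 and 1576 to 1613 against HBL1, and 887 to 1087 and 704 to 770 for DMSO over time.

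With the replicate letter as a block, 1898 genes were higher and 2397 lower at 24 h, and no count of called genes left 1.5 times its reported value. The letters are not known to pair the arrays.

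Control measures changed sign as follows. Actin 3-prime was 0.021 with cyclic loess and 0.0065 against 0 h. With covariates GAPDH 5-prime was 0.083, ISGF3A 3-prime 0.70, 18S middle -0.84 and the hybridisation mean -0.15. The MA set of ISGF3A, with a difference of -0.0014 at 24 h, was 0.017 with array weights and ran from -0.049 to 0.026 without single arrays. With poly-A spikes subtracted 18S 5-prime was -0.27, 18S middle -0.075 and the hybridisation mean -0.20, and with hybridisation controls subtracted 18S 5-prime was -0.062. Under covariates the difference from 6 h lost its call for ENSG00000252139 (2.70) and ENSG00000122877 (-0.56), as did the difference from the other lines for ENSG00000122877 (-1.59). Arrays give no count of molecules, and the level at which signal meets background was not tested. Alternatives for gene lists and named symbols were not run, because identifiers have no names here.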
